A study of Mus musculus with 3 samples.

Results

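The genes described here are 43 DNA damage response and DNA repair genes, listed apart from the end-joining genes, although Polq among them joins breaks. They were taken from a list of names and found in the count table by Entrez gene number, and all 43 were present among its 27179 genes. The list was grouped by pathway into 8 checkpoint and damage-signalling genes, 12 genes of homologous recombination, 4 Fanconi genes, 3 of mismatch repair, 8 of base excision repair, 6 of nucleotide excision repair and 2 specialised DNA polymerases. All 43 passed the filter on low counts, with at least 74 counts in each Pax5-/- sample and at least 35 in the wild type.

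RNA sequencing was done on mouse pro-B cells, the precursors that assemble the immunoglobulin heavy chain gene. There were 2 Pax5-/- samples, both from male C57BL/6 mice and described as independently prepared, and 1 wild-type sample from a female C57BL/6 mouse; no age is given. All 3 cultures started from B220+ bone marrow cells (B220 is a B-lineage form of CD45) and grew on OP9, a stromal feeder line. For the Pax5-/- cells, the labels add that IgM+ cells were removed on magnetic beads at day 7, and no such step or day is given for the wild type. Sex and this depletion therefore cannot be told apart from genotype. The labels do not say which part of Pax5 the null allele lacks, nor whether 1 or several animals gave each sample.

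The Pax5-/- libraries held 6487846 and 6697879 counts and the wild-type library 6530057; values are given below in this order. Pax5, the transcription factor that commits cells to the B lineage, had 417, 551 and 1601 counts; reads outside a deleted part still count, so this checks little. All 12 B-lineage markers were detected in every library. Neutrophil and myeloid markers summed to 29.0, 46.1 and 88.9 CPM (counts per 1000000, after TMM scaling, the trimmed mean of M values). S100a9, Ngp and S100a8, at 36.2, 17.9 and 4.68 CPM in the wild type, were at 0 in both Pax5-/- samples, while Lyz2 was higher there, at 14.2 and 18.8 against 4.37 CPM. T cell markers summed to 21.0, 17.2 and 2.50 CPM, of which Trbc1 alone was 20.2, 16.6 and 0.62; the other 6 summed to 0.772, 0.588 and 1.87 CPM, with Cd3g and Bcl11b at 0 in both Pax5-/- samples. Stromal markers summed to 64.1, 94.0 and 36.5 CPM, mostly Thy1 at 55.9, 87.3 and 18.7; the other 7 summed to 8.18, 6.76 and 17.8 CPM, the other direction, with Dcn at 0 in all 3 libraries. Erythroid markers summed to 423, 431 and 604 CPM, nearly all of it Tfrc, with Hba-a1 and Hbb-bs at 0. Markers of plasma and mature B cells, in the wild type mainly Igkc, summed to 17.0, 12.2 and 743 CPM. The other 5 summed to 8.6, 7.8 and 130 CPM, and all 5 were lower in both Pax5-/- samples. Whether these differences in cell makeup had a part in the values below was not tested, and in bulk RNA fewer cells of a type and less RNA per cell cannot be told apart.

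Cells read DNA damage through the kinases ATM and ATR, which signal through checkpoint kinases and p53 to halt division, and through chromatin marks that gather repair proteins at a break. Homologous recombination copies the sister chromatid and the Fanconi proteins open crosslinked strands, mostly while DNA is being replicated. Mismatch, base excision and nucleotide excision repair remove wrongly paired, chemically altered and bulky bases, and in B cells uracil excision, mismatch repair and polymerase eta also serve the later diversification of antibody genes.

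Of the 43 repair genes, 39 did not pass the test between Pax5-/- and wild-type cells and 4 did. These 4 differed by edgeR's quasi-likelihood test at an adjusted p under 0.05 (Benjamini-Hochberg, over all genes tested), with 2 up and 2 down. Parp1 and Xpc rose, and Xrcc1 and Polh fell. Among all 11783 genes tested, 18.1% were called, with 9.53% up and 8.55% down. Among the 9016 tested genes whose mean CPM lay within the range of these 43, it was 17.6%, with 9.65% up and 7.94% down. The share among the repair genes was 9.30%. With a stricter count filter (a CPM of at least 5 in every library) 6 of the 43 were called (14.0%), beside 14.9% of the 8992 genes then tested, and with RLE scaling (relative log expression) also 6, beside 21.9%. An unadjusted p under 0.05 was found for 12 of the 43 (27.9%), beside 36.0% of all genes tested, the share against which the counts at that level below are to be read. Their median log2 fold change, Pax5-/- over wild type, was -0.01, beside 0.01 over all genes tested. The median size of the log2 change was 0.32, beside 0.41 over all genes and 0.33 in that CPM range. With 1 wild-type library, the test took its spread from the difference between the Pax5-/- samples (1 residual degree of freedom) and carried it over to the wild type. With a biological coefficient of variation of 0.4 assumed for every gene, 0 of the 43 were called, beside 10.2% of all genes. At that setting 2 of the 43 had an unadjusted p under 0.05.

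**Figure D1:**
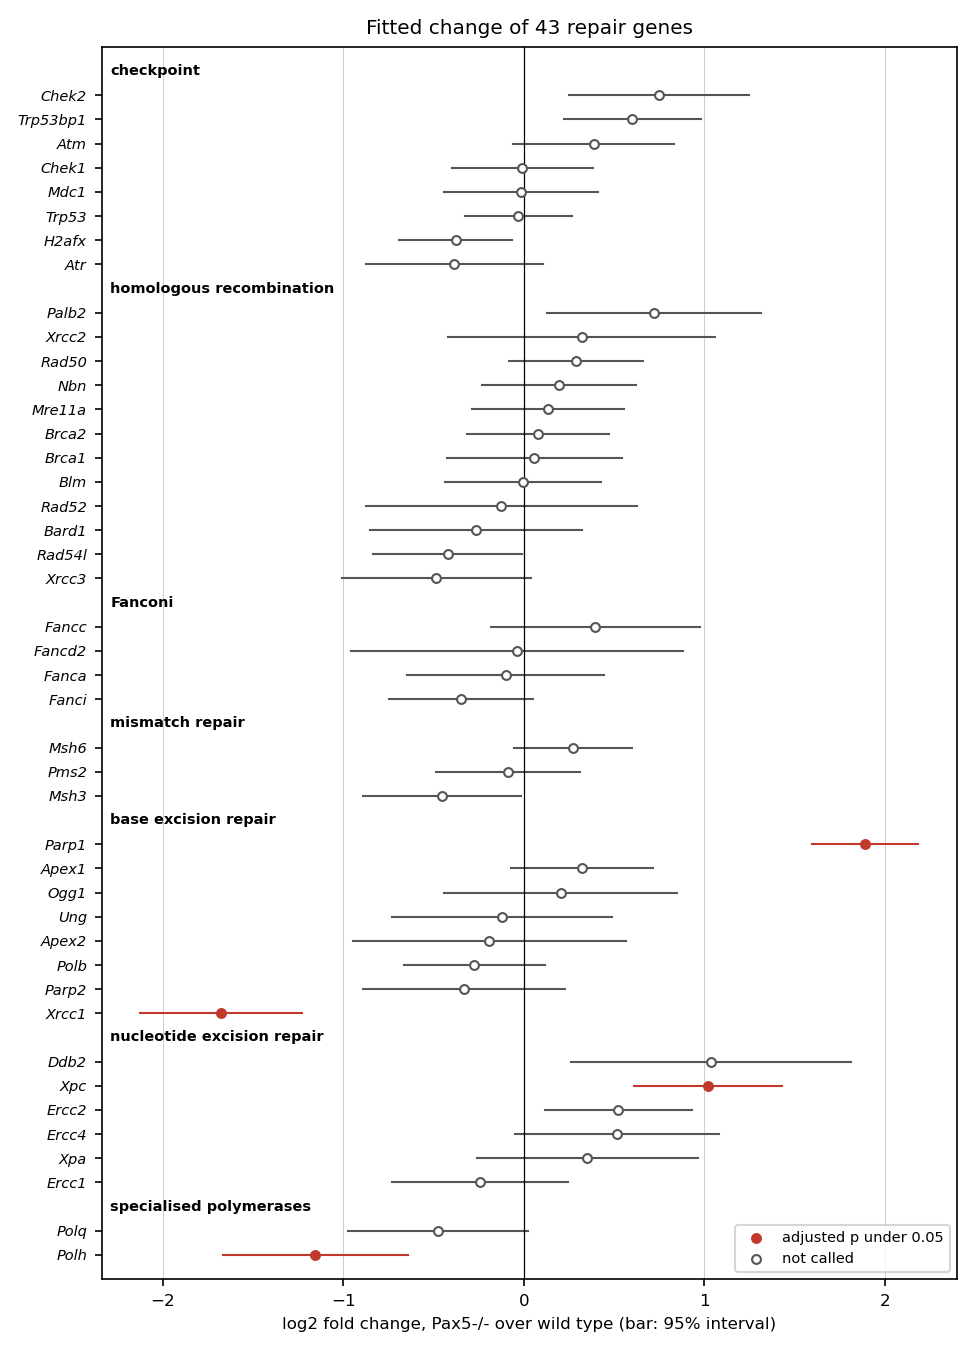
Fitted log2 fold change (Pax5-/- over wild type, horizontal axis) of each repair gene, grouped by pathway, with its unadjusted 95% interval as a bar. Filled points mark the 4 called genes: Parp1 at 1.89 and Xpc at 1.02 lie to the right of 0, and Polh at -1.16 and Xrcc1 at -1.68 to the left.

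The sequence before their transcription starts is shown for Parp1, which had the largest log2 fold change of the 43 genes, and for Polh, which fell. The windows are the 250 bases before the RefSeq start (GRCm38.p6, the assembly that mm10 names), 5′ to 3′ on the gene's own strand, and capitals mark GC boxes (GGGCGG on either strand, a motif of the Sp1 family that was chosen after the sequences had been seen). The Parp1 window is chr1:180568641-180568890 on the plus strand, and the Polh window is chr17:46202642-46202891 on the minus strand.
Parp1: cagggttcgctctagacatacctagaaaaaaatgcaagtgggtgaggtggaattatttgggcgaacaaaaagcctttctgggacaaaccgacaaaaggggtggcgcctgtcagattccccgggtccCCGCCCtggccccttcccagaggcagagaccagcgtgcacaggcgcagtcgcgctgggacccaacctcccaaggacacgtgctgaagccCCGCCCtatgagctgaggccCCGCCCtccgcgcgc
Polh: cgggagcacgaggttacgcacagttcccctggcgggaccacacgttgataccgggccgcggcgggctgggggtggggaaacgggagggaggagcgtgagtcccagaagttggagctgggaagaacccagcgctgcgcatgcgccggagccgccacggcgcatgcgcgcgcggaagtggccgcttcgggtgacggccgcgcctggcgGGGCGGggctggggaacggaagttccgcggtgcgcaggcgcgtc
The Parp1 window held 3 GC boxes and 16 CpG, at 61.6% G and C, and the Polh window 1 GC box and 35 CpG, at 73.2%. Xrcc1, which fell further than Polh, is not shown because its RefSeq start lies 410 bases inside the gene as GENCODE M21 draws it, so that its window is not upstream sequence there.

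Of the 43 genes, 34 had a RefSeq window, and 23 of these 34 (67.6%) held a GC box, beside 64.3% of the 9080 tested genes with a window. RefSeq gives some genes several starts, and 24 of the 34 windows reach into the gene as counted from its outermost start. By RefSeq, 10 windows lie wholly before the gene, among them the Xrcc1 window, which GENCODE M21 places inside the gene. Of these 10, 7 held a GC box (70.0%), beside 58.6% of 4870 such windows of tested genes. E2F factors drive genes of the replication phase, and their motif was searched as TTTCCCGC, TTTGGCGC or TTTCGCGC on either strand. It was found in 5 of 34 (14.7%), beside 3.73% of tested genes. In the 10 windows wholly before the gene it was found in 0, beside 3.45% of such windows of tested genes. With only 10 windows, this 0 cannot be read against the 14.7%. The windows of Msh3 and Mdc1, which held matches, were left out of these 10 for reaching 1 and 3 bases into the gene. The cell-cycle motif CHR (TTTGAA on either strand) was found in 2 of 34 (5.88%), in Bard1 and Polq, beside 12.9%. The E2F matches of Chek2 and Brca2 lie inside the gene and are not shown. The other 3 lie before the outermost start and are shown so that the matched letters can be read, with up to 10 bases on each side and the match in capitals.
Bard1 (chr1:71103164-71103191, minus strand): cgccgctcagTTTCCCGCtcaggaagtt
Msh3 (chr13:92355188-92355215, minus strand): tgccgtcaagTTTGGCGCgaaatcgcag
Mdc1 (chr17:35841472-35841497, plus strand): cttcagcctgTTTCCCGCcggtagcc
In Msh3 a second match on the other strand overlaps the first, and the last 3 bases shown for Mdc1 lie in the gene. A match is a string of letters, not a site shown to be bound.

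Base excision repair held the largest changes in both directions among the 43 genes. Parp1 encodes the poly(ADP-ribose) polymerase that senses nicked DNA (Entrez 11545; chromosome 1, 180568891 to 180600999, mm10). It was counted 15198, 17072 and 4193 times, or at 2346 and 2508 CPM without Pax5 and 654 CPM with it. Both Pax5-/- samples lay far above the wild type, at 2427 ± 115 CPM (SD, n = 2). Parp1 rose 3.71-fold (log2 fold change 1.89, SE 0.11, 95% interval 1.60 to 2.19, adjusted p = 0.00404, edgeR). Xrcc1 encodes the scaffold that gathers polymerase and ligase at a nick marked by PARP1 (Entrez 22594; chromosome 7, 24546699 to 24573438). From 512, 454 and 1494 counts, it stood at 79.0 and 66.7 CPM against 233 CPM. Its Pax5-/- samples, at 72.9 ± 8.72 CPM (SD, n = 2), both lay below the wild type. Xrcc1 fell 3.20-fold (log2 fold change -1.68, SE 0.16, 95% interval -2.12 to -1.23, adjusted p = 0.00906, edgeR).

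**Figure D2:**
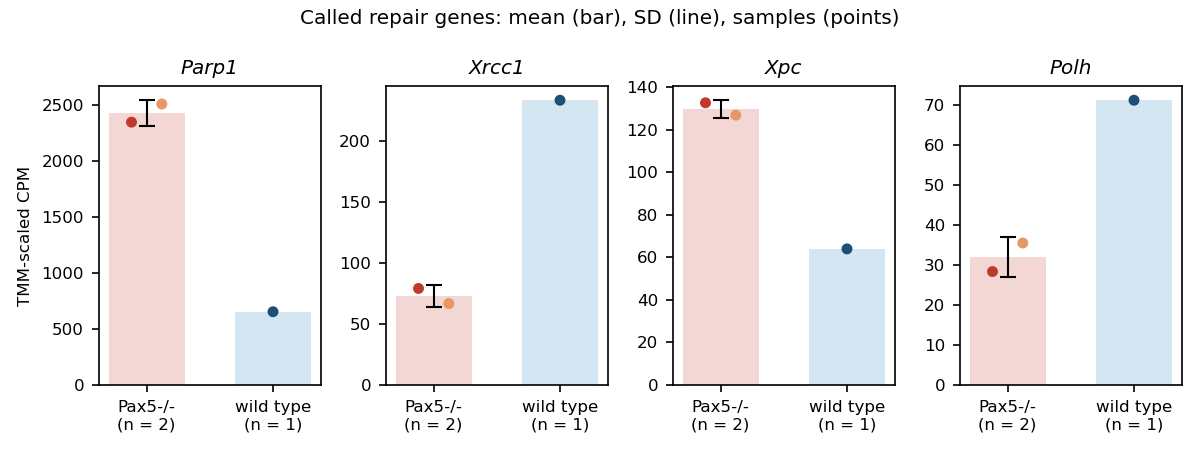
TMM-scaled CPM (vertical axis, from 0) of the 4 called repair genes. Bars are the Pax5-/- mean with its SD (n = 2) and the lone wild-type value, and points are samples. Parp1 and Xpc stood higher in both Pax5-/- samples and Xrcc1 and Polh lower.

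The other 6 members of base excision repair were not called. Parp2, the second nick-sensing polymerase, was at 71.8 and 56.3 CPM against 80.5 (log2 fold change -0.33, 95% interval -0.89 to 0.23). Of the glycosylases that take out the damaged base, Ung, which removes uracil, was at 41.8 and 55.5 against 52.9 CPM. Ogg1, which removes oxidised guanine, was at 14.8 and 13.2 against 12.2 CPM. Ung thus had 1 Pax5-/- sample on each side of the wild type. Apex1, the main endonuclease that cuts the emptied site, was at 129 and 139 against 107 CPM (log2 fold change 0.32, adjusted p = 0.199). Its exons share 70.8% of their bases with Pip4p1 on the other strand, and without a stated strand setting the reads of these genes cannot be told apart. Apex2, its relative on the X chromosome, was at 12.3 and 16.6 against 16.5 CPM. Polb, the gap-filling polymerase, was at 35.3 and 34.5 against 42.3 CPM (log2 fold change -0.27, adjusted p = 0.251). Among 15 other tested base excision genes, drawn from general knowledge, 1 fell and 0 rose. That gene was Neil1, a glycosylase for oxidised bases, at 10.0 and 8.96 against 36.2 CPM (adjusted p = 0.0103; log2 fold change -1.93, SE 0.20), and it was no longer called with the assumed variation of 0.4.

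In nucleotide excision repair, 5 of 6 genes stood above the wild type in both Pax5-/- samples, beside 42.3% of all genes tested, and 1 was called. Xpc, which finds helix distortions anywhere in the genome and starts the repair (Entrez 22591; chromosome 6, 91489305 to 91515888), was counted 859, 863 and 410 times. At 133 and 127 CPM against 64.0 CPM, its Pax5-/- samples lay close together, at 129.7 ± 4.11 CPM (SD, n = 2). Xpc rose 2.03-fold (log2 fold change 1.02, SE 0.15, 95% interval 0.61 to 1.43, adjusted p = 0.0220, edgeR). Ddb2, which binds ultraviolet lesions ahead of XPC, had a log2 fold change of the same size without a call: 75 and 74 counts against 35, or 11.6 and 10.9 against 5.46 CPM (log2 fold change 1.04, SE 0.28, adjusted p = 0.0808). It passed the threshold with the stricter count filter (adjusted p = 0.04996) and with the likelihood ratio test (adjusted p = 0.0364), over a range of 0.0364 to 0.795 across the alternatives. Ddb2 exons share 26.7% of their bases with Acp2 on the other strand, and Acp2 had 72 and 68 counts against 12; whether Acp2 reads had a part in the Ddb2 value was not tested.

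None of the genes that act after damage recognition was called. Ercc2, the XPD helicase that opens the helix, was at 51.2 and 47.9 against 34.5 CPM (log2 fold change 0.52, SE 0.15, adjusted p = 0.0874). Ercc4, which encodes the XPF nuclease, was at 28.9 and 35.4 against 22.5 CPM (log2 fold change 0.52, SE 0.21, adjusted p = 0.164). Its partner Ercc1, without which XPF does not cut, was at 28.4 and 24.8 against 31.5 CPM and was the only member of this pathway below the wild type in both samples. Xpa, which checks the lesion, was at 15.4 and 14.8 against 11.8 CPM. Of 16 other nucleotide excision genes tested, 0 were called by edgeR, DESeq2 or limma-voom. An unadjusted p under 0.05 in edgeR was found for 3 of them (18.8%, beside 36.0% of all genes). The lean upward was not seen among these 16. In both Pax5-/- samples 7 stood above the wild type and 8 below, with a median log2 fold change of -0.02.

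The specialised polymerases were lower in all Pax5-/- samples, and 1 of the 2 was called. Polh encodes polymerase eta, which copies past ultraviolet lesions and makes mutations at A and T bases of antibody genes in mature B cells (Entrez 80905; chromosome 17, 46171355 to 46202641). It was counted 184 and 242 times against 457, or at 28.4 and 35.5 CPM against 71.3. Polh fell 2.23-fold (log2 fold change -1.16, SE 0.19, 95% interval -1.67 to -0.64, adjusted p = 0.0272, edgeR). Polq, polymerase theta, which joins breaks through short matching sequence, was at 25.3 and 30.3 against 38.7 CPM and was not called (log2 fold change -0.48, adjusted p = 0.152). Of 8 other genes of lesion bypass, 1 rose and 0 fell. That gene was Poli, polymerase iota and the closest relative of Polh in the list, at 38.3 and 41.0 against 12.2 CPM (adjusted p = 0.0107; log2 fold change 1.70, SE 0.18), and it too was no longer called with the assumed variation of 0.4. On CPM per kilobase, which allows levels of different genes to be compared, Polh was at 11.0, 13.8 and 27.6 in the same order.

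**Figure D3:**
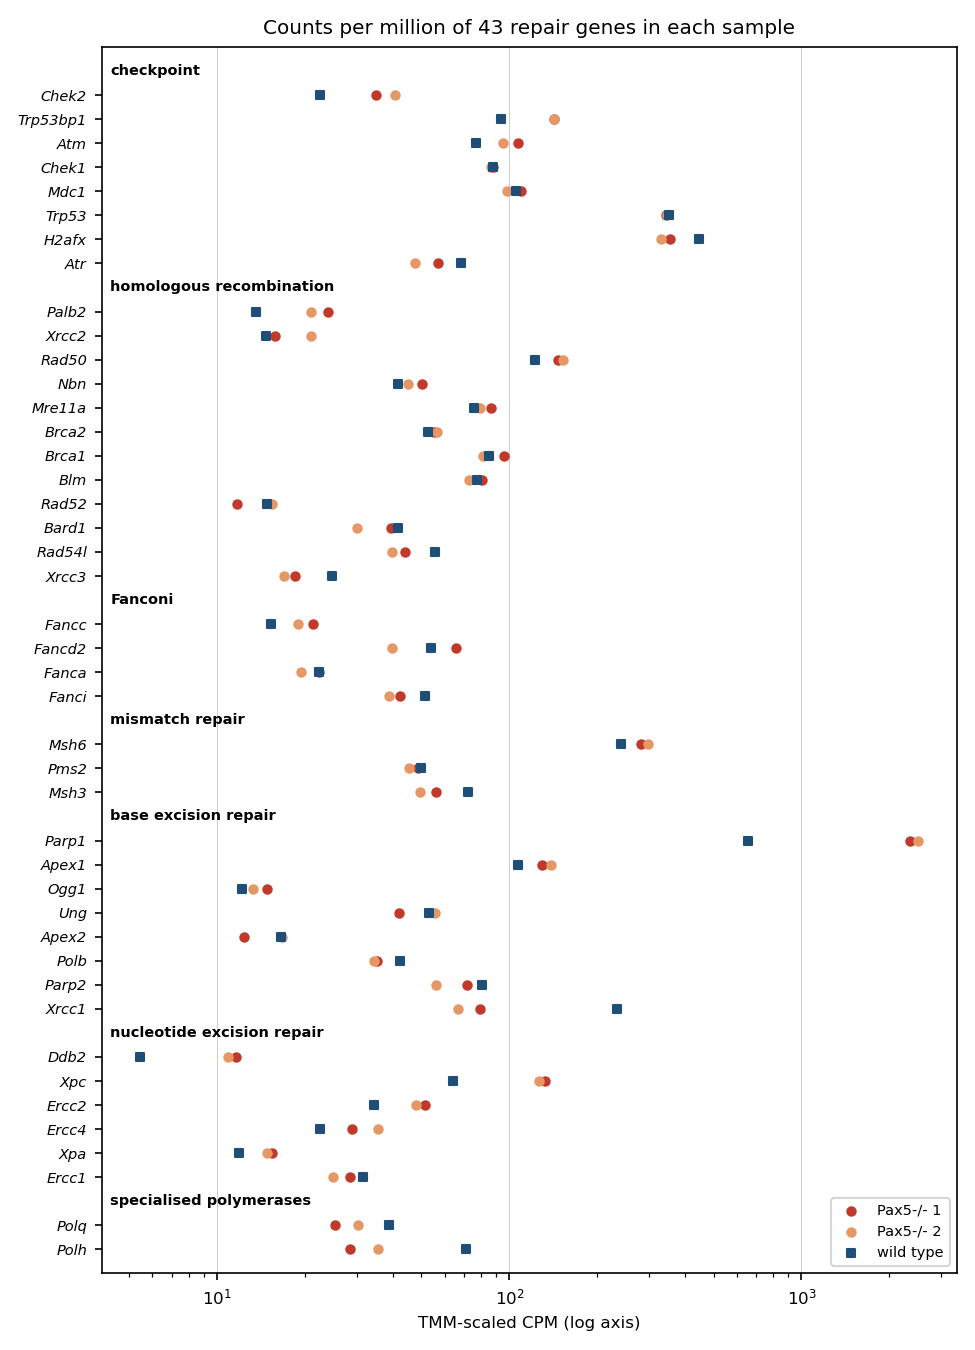
TMM-scaled CPM (horizontal log axis) of all 43 repair genes in each Pax5-/- sample (circles) and in the wild type (squares), by pathway. For most genes the 3 symbols lie close together; Parp1, at 2346 and 2508 CPM in Pax5-/-, stands apart.

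No checkpoint gene was called among 8 (edgeR), while 3 had an unadjusted p under 0.05 (37.5%, beside 36.0% of all genes), DESeq2 called 0 and limma-voom 1. The apex kinases went apart without a call: Atm, which answers to broken ends, was at 107 and 94.7 against 77.1 CPM (log2 fold change 0.39, adjusted p = 0.177). Atr, which answers to stalled replication, was at 57.0 and 47.4 against 68.2 CPM (log2 fold change -0.39, adjusted p = 0.211). Chek1, the kinase below ATR, was nearly the same in all 3 libraries at 87.8, 86.5 and 87.7 CPM. Chek2, the kinase below ATM, was at 34.9 and 40.5 against 22.5 CPM (log2 fold change 0.75, SE 0.18, adjusted p = 0.0635) and passed only with RLE scaling (adjusted p = 0.0473), over a range of 0.0473 to 1.00 across the alternatives.

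None of the genes for proteins that mark breaks in chromatin was called. H2afx, the histone variant phosphorylated around a break, was at 356 and 331 against 446 CPM (log2 fold change -0.38, SE 0.11, unadjusted 95% interval -0.69 to -0.07, adjusted p = 0.0969). Mdc1, which reads that mark, was at 109.6 and 98.3 against 105 CPM. Trp53bp1, which protects broken ends from resection, was at 142 CPM in both Pax5-/- samples against 93.4 (log2 fold change 0.60, SE 0.14, unadjusted 95% interval 0.22 to 0.98, adjusted p = 0.0565). It passed with RLE scaling, the stricter count filter, robust dispersion and limma-voom, over a range of 0.0378 to 1.00. Its exons share 22.1% of their bases with Tubgcp4 on the other strand, which had 206 and 200 counts against 196.

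Trp53, the p53 gene, was at 345, 347 and 353 CPM (log2 fold change -0.03, 95% interval -0.33 to 0.27). A processed pseudogene, Trp53-ps on chromosome 17, could share its reads. Of 18 tested p53 target genes, 1 rose and 4 fell, a share of 27.8% beside the 18.1% of all genes, with a median log2 fold change of -0.52. Pmaip1, the death gene Noxa, rose, with a log2 fold change of 2.75 (adjusted p = 0.00906, SE 0.27). The genes that fell included Rrm2b, the p53-induced subunit of ribonucleotide reductase, at -2.52 (SE 0.25, adjusted p = 0.00981), Btg2, an antiproliferative gene, at -2.39 (SE 0.21, adjusted p = 0.00787), and Bax, the mitochondrial death gene, at -0.93 (SE 0.15, adjusted p = 0.0257). Cdkn1a, the cell-cycle inhibitor p21, chosen after its value was seen, was at 132 and 161 against 146 CPM. The call of Bax was lost with the assumed variation of 0.4. Of 17 other checkpoint genes, 2 fell and 0 rose: Cdc25b, a phosphatase that releases cells into mitosis, at 51.4 and 51.6 against 238 CPM (log2 fold change -2.21, SE 0.13, adjusted p = 0.00430), and Hus1, a clamp loaded at damage, at 35.8 and 38.8 against 59.4 CPM (log2 fold change -0.67, adjusted p = 0.0488). The Hus1 call was lost in 6 of the 9 tested alternatives.

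Homologous recombination was the pathway with the most members, and 0 of 12 were called by edgeR, DESeq2 or limma-voom; 2 had an unadjusted p under 0.05 (16.7%, beside 36.0% of all genes). Brca1, which prepares broken ends, was at 96.0 and 81.1 against 85.0 CPM, with the wild type between the Pax5-/- samples. Its partner Bard1 was at 39.2 and 30.1 against 41.6 CPM. Brca2, which loads the strand-exchange filament, was at 55.1 and 56.4 against 52.7 CPM (log2 fold change 0.08, 95% interval -0.31 to 0.47). Palb2, the bridge between BRCA1 and BRCA2, was at 23.9 and 20.9 against 13.6 CPM (log2 fold change 0.72, SE 0.22, adjusted p = 0.0957). The break-binding complex was slightly above the wild type in every member: Mre11a, its nuclease, was at 86.4 and 79.2 against 75.5 CPM. Rad50, the tether, was at 146 and 152 against 122 CPM, and Nbn, the link to ATM, at 50.2 and 44.9 against 41.5 CPM. None of these 3 was called, with log2 fold changes of 0.13, 0.29 and 0.20.

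The strand-exchange helpers went both ways without a call. Rad54l, a motor of strand exchange, was at 43.8 and 39.5 against 55.8 CPM (log2 fold change -0.42, SE 0.15, adjusted p = 0.134). Xrcc3 was at 18.5 and 16.9 against 24.8 CPM and Xrcc2, also a gene of strand exchange, at 15.7 and 20.9 against 14.7 CPM. Rad52, a strand-annealing protein, was at 11.7 and 15.4 against 14.8 CPM. Blm, the helicase that dissolves joined chromosomes, was at 80.9, 72.9 and 77.2 CPM (log2 fold change -0.01). Of 22 other genes of this pathway, 0 were called by any of these tools and 3 had an unadjusted p under 0.05.

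The Fanconi and mismatch repair genes showed the same lack of calls. Of 4 Fanconi genes, 0 were called by edgeR, DESeq2 or limma-voom, and 0 had an unadjusted p under 0.05. Fancd2, the protein that is ubiquitinated at a crosslink, differed most between the Pax5-/- samples, at 65.4 and 39.7 CPM, with the wild type between them at 54.0. Its partner Fanci was at 42.1 and 38.8 against 51.5 CPM. Of the core-complex genes, Fanca was at 22.2 and 19.4 against 22.3 CPM, with the first sample level with the wild type. Fancc was above the wild type in both samples, at 21.3 and 18.9 against 15.3 CPM. Of 9 other Fanconi genes, 0 were called by these tools and 2 had an unadjusted p under 0.05. Of 3 mismatch genes, 0 were called by these tools and 1 had an unadjusted p under 0.05 (33.3%, beside 36.0% of all genes). Msh6, part of the complex that finds mispaired bases, was at 283 and 299 against 240.5 CPM. Msh3, its counterpart for small loops, was at 56.0 and 49.5 against 72.2 CPM (log2 fold change -0.45, SE 0.16, adjusted p = 0.130). Pms2, the nicking subunit, was at 48.6 and 45.4 against 49.9 CPM. Of 4 other mismatch genes, 0 were called by these tools and 2 had an unadjusted p under 0.05.

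Recombination and Fanconi genes are transcribed mostly in dividing cells, so replication and proliferation genes were counted beside them. Of 30, 4 fell and 0 rose (13.3%, beside 18.1% of all genes called and 8.55% lower), with a median log2 fold change of -0.17. E2f2, a replication-phase transcription factor, fell from 471 CPM to 73.6 and 61.8 (log2 fold change -2.80, SE 0.16, adjusted p = 0.00402). Rrm2, the replication subunit of ribonucleotide reductase, was at -1.55 (SE 0.12, adjusted p = 0.00572) and Ccna2, cyclin A2, at -0.90 (SE 0.16, adjusted p = 0.0325). The calls of Rrm2 and Ccna2 were lost with the assumed variation of 0.4. E2f1, chosen after its value was seen, was at 43.5 and 43.3 against 48.5 CPM. What part proliferation had in the repair values was not tested.

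**Figure D4:**
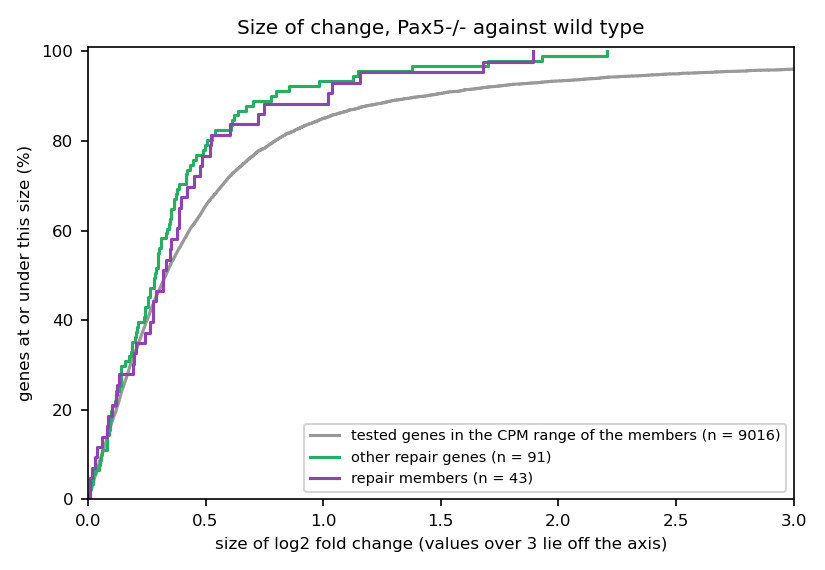
Share of genes (vertical axis, percent) whose log2 fold change is at or under the size on the horizontal axis, for the 43 repair genes, 91 other tested repair genes and the 9016 tested genes in the same CPM range. The median sizes were 0.32, 0.29 and 0.33. The shares under a size of 0.5 were 76.7%, 79.1% and 65.5%, in the same order.

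Across all 7 pathways, 19 repair genes were above the wild type in both Pax5-/- samples (42.3% of all genes were), 16 were below in both (42.9%), and 8 had a Pax5-/- sample on each side. For 33 of the 43 genes (76.7%), all among the 39 not called, the unadjusted 95% interval of the log2 fold change lay within 1 in either direction; the share was 63.2% in the same CPM range. The 6 uncalled genes whose interval reached beyond 1 were Chek2, Palb2, Xrcc2, Xrcc3, Ercc4 and Ddb2, so a difference of that size lay within theirs. A further 91 tested genes of the same pathways gave 4 calls (4.40%, beside 18.1% of all genes), 1 higher and 3 lower. Their median log2 fold change was -0.14. The count of calls was 9 with RLE scaling or without the low count filter, beside 21.9% and 15.0% of all genes. It was 8 with the likelihood ratio test and 11 with robust dispersion, beside 22.2% and 22.0% of all genes. With the assumed variation it was 1, beside 10.2%.

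On CPM per kilobase, Parp1 was the most abundant of the 43 transcripts in Pax5-/-, at 613 and 655, and H2afx in the wild type, at 327. In the wild type, Trp53 at 189 and Parp1 at 171 came next. In Pax5-/-, Parp1 was followed by H2afx at 261 and 243, Trp53 at 185 and 186 and Apex1 at 98.7 and 106. Xrcc1 moved from 108 in the wild type, above Apex1 at 82.0, to 36.7 and 30.9, next to Xpc at 36.5 and 34.9 and Parp2 at 40.1 and 31.5; these 3 did not differ beyond the spread of the Pax5-/- samples. The lowest in the mean over the 3 libraries was Polq, at 2.96, 3.54 and 4.52.

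Reads that could belong to another gene were checked in GENCODE M21. Of the 43 genes, 21 share exon bases with another annotated gene and 22 share none. Of the 4 called genes, Xrcc1, Xpc and Polh share none, and Parp1 shares 7 bases with a microRNA gene.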

How the data were processed

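Total RNA of 2 Pax5-/- samples and 1 wild type was sequenced, and samples were grouped by title. The authors deposited whole-number gene counts made with featureCounts against mm10, per the submitters' processing notes; its version and strand setting, the aligner and the annotation were not given in the sources used here. The series table matched each sample's own file in all 27179 genes. Lengths in bases, per the file headers, gave CPM per kilobase. Symbols came from RefSeq GRCm38.p6 by Entrez number (25275 genes, 93.0%).

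The fit used edgeR 4.0.16 (R 4.3.3): filterByExpr (minimum count 10), TMM scaling (factors 1.00, 1.02 and 0.983), glmQLFit and glmQLFTest, Benjamini-Hochberg adjustment over 11783 genes and a threshold of 0.05. There was 1 residual degree of freedom with 3.15 prior degrees of freedom, and a biological coefficient of variation of 0.203. The SE is the log2 fold change over the root of F, and 95% intervals use the t distribution with the moderated degrees of freedom. The Pax5-/- libraries differed by far more than sampling noise (chi-square of 16.3 per gene over 11829 genes). The labels do not name separate animals, so p-values measure the spread between these samples. Without molecular identifiers, reads can be copies of one molecule. The scripts were tested on simulated data.

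Alternatives were RLE scaling, library size alone, no filter, a CPM of at least 5 in every sample, the likelihood ratio test, robust dispersion, an assumed coefficient of variation of 0.4, limma-voom (limma 3.58.1), DESeq2 1.42.0, and leaving out each Pax5-/- sample. The 43 genes and all lists were chosen with earlier results of these data known. Every listed repair gene is named; of the other lists, up to 3 called genes in each direction, by size of change, whose mean CPM reached 5 and whose Pax5-/- samples lay on 1 side of the wild type. Promoters were to be shown for the called genes with the largest and smallest log2 fold change, Parp1 and Xrcc1, and Polh took the place of Xrcc1. A few results are not reported here.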

Additional observations from a re-analysis of the deposited data

How the results depend on the processing

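Parp1, Xrcc1, Xpc and Polh stayed called in 8 of the 9 alternatives with a test and lost the call with the assumed variation of 0.4, where their adjusted p ran from 0.117 to 0.756 and where 0 repair genes, 1206 of all genes (2130 before), 1 other repair gene, 1 replication gene and 3 p53 targets were called. Calls among the 43 (4 before) rose to 6 with RLE scaling (14.0%, beside 21.9% of all genes). They were also 6 with the stricter filter (14.0%, beside 14.9%, or 1344 of fewer genes tested). With the likelihood ratio test, robust dispersion and limma-voom they were 5 (11.6%), beside 22.2%, 22.0% and 16.4% of all genes. The genes added were Chek2, Trp53bp1 and Ddb2. Calls among other repair genes (4 before) were 9 with RLE scaling and 9 without the filter, beside 21.9% and 15.0% of all genes. They were 8 with the likelihood ratio test and 11 with robust dispersion, beside 22.2% and 22.0% of all genes. The cause was not tested. Values of uncalled genes near 0 changed sign: with library size alone Chek1 stood at 0.0289, Trp53 at 0.00713, Mdc1 at 0.0197 and Blm at 0.0299, and with the stricter filter Chek1 at 0.00337 and Blm at 0.00524. Leaving out each Pax5-/- sample leaves 1 against 1, with no test and no counts of calls; the median log2 fold change of the 43 genes was then 0.00563 to 0.0637, and Parp1 stood at 1.84 to 1.94. No paired analysis was possible because the labels pair no Pax5-/- sample with the wild type.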
